A study of Mus musculus with 22 samples.

Results

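Nodal, Gdf3, Tdgf1, Acvr2b, Foxh1, Lefty1, Lefty2, Cer1 and Smad7 are genes of the Nodal and Activin signalling pathway. They were taken by gene symbol from the deposited expression tables, which gave 9 genes of the 55055 shared by the count tables, and were followed through 22 RNA-seq libraries of mouse embryonic stem (mES) cells and of cultures grown from them. The study asked how Hox mutant cells, labelled Hox-/-, differ from wild-type (wt) cells; the library titles call the mutant cells BADC, which the labels do not spell out, and the series title describes them as without any Hox function. Wild-type and Hox-/- mES cells (2 libraries each) were grown in medium with LIF, with CHIR99021 (3 µM, an inhibitor of GSK-3) and with PD0325901 (1 µM, an inhibitor of MEK). Wild-type and Hox-/- endoderm cultures (3 libraries each) were plated cells that received 100 ng/ml Activin A together with 3 µM CHIR99021 at 24 h and again at 72 h, and were harvested at 120 h. Activin A gastruloids of wild type and of Hox-/-, and wild-type gastruloids labelled Chiron, were sampled at 96 h and at 120 h (2 libraries per group). A gastruloid is a clump of cultured stem cells used as a model of the early embryo, and the labels give neither doses nor addition times for them. The number of clones behind a genotype is not in the labels, so genotype and clone cannot be told apart. The labels call the endoderm cultures and gastruloids mixed cells, and in such bulk RNA fewer cells of a type and less RNA per cell cannot be told apart. Activin A was thus present in the endoderm cultures of both genotypes and in Activin A gastruloids of both genotypes, and no Hox-/- Chiron gastruloid was analysed here.

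Nodal and Gdf3 are secreted ligands of the TGF-beta superfamily. Nodal binds receptor complexes that contain the type II receptor Acvr2b or its relative Acvr2a, together with a type I receptor and a co-receptor of the EGF-CFC family such as Tdgf1 (Cripto), while Activin uses the same receptors without needing the co-receptor. The active receptors phosphorylate Smad2 and Smad3, which bind DNA with Smad4 and with partners such as the forkhead factor Foxh1. The pathway feeds back on itself: Nodal, Lefty1, Lefty2 and Cer1 are known targets of it, Lefty proteins and Cer1 block Nodal outside the cell, and Smad7 blocks the receptors inside it. In the mouse embryo Nodal signalling maintains the epiblast, induces mesoderm and definitive endoderm, and sets the anterior-posterior and left-right axes.

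Lefty1 and Lefty2 are neighbouring copies, and their sequences are shown because their genotype differences were not alike in several cultures and because reads from shared stretches could be counted for either. Lefty2 (ENSMUSG00000066652, chromosome 1, 180893108 to 180899103) ends 35918 bases before Lefty1 (ENSMUSG00000038793, chromosome 1, 180935022 to 180938400) begins, on the same strand of the mm10 build. Their coding sequences are 1104 bases each and identical at 91.8% of positions. The stretches of exon 1 with the most differences are printed here from the reference, 5′ to 3′ on the plus strand, chr1:180935144-180935233 and chr1:180893218-180893307, with the 27 differing bases of 90 in capitals.
Lefty1: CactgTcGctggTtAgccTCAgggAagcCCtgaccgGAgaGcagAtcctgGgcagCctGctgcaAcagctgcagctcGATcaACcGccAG
Lefty2: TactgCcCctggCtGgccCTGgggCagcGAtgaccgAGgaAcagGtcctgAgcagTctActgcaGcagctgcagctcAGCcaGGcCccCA
Of all 50-base windows of the transcript, 17.9% for Lefty1 were also found in Lefty2, and 11.6% for Lefty2 were found in Lefty1 or Gm44212. A read within the printed stretch of exon 1 differs between the copies.

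Among the other genes, 12.5% of the windows of Tdgf1 (ENSMUSG00000032494, chromosome 9, 110939603 to 110946158) are shared with the pseudogene Tdgf1-ps1. Shares were 2.02% for Gdf3 (ENSMUSG00000030117, chromosome 6, 122605403 to 122610087) and 1.78% for Cer1 (ENSMUSG00000038192, chromosome 4, 82881751 to 82885148), in sequence found in many genes. No window was shared for Nodal (ENSMUSG00000037171, chromosome 10, 61417972 to 61425338), Foxh1 (ENSMUSG00000033837, chromosome 15, 76668225 to 76669948), Acvr2b (ENSMUSG00000061393, chromosome 9, 119402118 to 119434995) or Smad7 (ENSMUSG00000025880). Only Acvr2b overlaps another annotated gene, the antisense Gm47320, which held 0 counts in all 22 libraries.

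RefSeq promoters of build GRCm38.p6 were matched for 4 of the 9 genes (Nodal, Tdgf1, Acvr2b and Cer1). Those of Cer1, the gene with the largest genotype difference, and of Nodal are printed for the 250 bases before the annotated start, 5′ to 3′ on the gene's strand (chr4:82885152-82885401, minus strand, and chr10:61417722-61417971, plus strand), with the letters CAGAC, known as the Smad box, in capitals.
Cer1: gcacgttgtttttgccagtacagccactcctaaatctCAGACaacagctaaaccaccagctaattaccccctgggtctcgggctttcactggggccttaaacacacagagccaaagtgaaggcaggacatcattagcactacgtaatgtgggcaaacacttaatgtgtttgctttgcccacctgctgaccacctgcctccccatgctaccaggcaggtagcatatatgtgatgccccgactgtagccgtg
Nodal: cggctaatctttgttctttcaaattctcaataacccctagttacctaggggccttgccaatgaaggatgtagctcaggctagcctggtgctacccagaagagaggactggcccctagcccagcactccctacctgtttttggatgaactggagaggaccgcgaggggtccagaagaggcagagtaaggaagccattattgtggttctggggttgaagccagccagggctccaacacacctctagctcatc
Searched on both strands of the 300 bases around the start, CAGAC stood 213 bases upstream of the start in Cer1, 113 in Tdgf1 and 233 in Acvr2b (there as its reverse complement), and was not in the Nodal window. It is common, at 49.6% of all 32851 promoters of this length. AATCCAC, the core bound by Foxh1, was in 2.49% of promoters and in none of these 4. A match is only a match of letters.

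Libraries held 9108085 to 28819301 counts, with the gastruloid libraries of 120 h below those of 96 h, and the spread of replicates exceeded counting error throughout (chi-square per degree of freedom 1.37 to 10.3, the highest in Chiron gastruloids at 96 h). In that group replicate 1 held more Cer1 and less Nodal, Lefty1 and Lefty2 than replicate 2, so values that rest on that group are also given without 1 of its libraries where a call changed or a called value moved by over 1.5 times. Levels are given as CPM, counts scaled to the library total, in each library, in the order of the replicates. Pluripotency markers (7 genes, Pou5f1 and Nanog among them) summed to 7036 to 7066 CPM in wild-type against 6688 to 6737 CPM in Hox-/- mES cells. Definitive endoderm markers (5 genes: Sox17, Foxa2, Foxa1, Gata4 and Gata6) were lower in Hox-/- wherever Activin A was used. They summed to 166 to 173 CPM in wild-type against 57.2 to 61.3 CPM in Hox-/- endoderm cultures. In Activin A gastruloids they stood at 203 to 228 CPM in wild type against 19.6 to 19.9 CPM in Hox-/- at 96 h, and at 183 to 189 and 29.3 to 31.0 CPM at 120 h, with at least 15 counts of each of the 5 genes in every one of these endoderm and gastruloid libraries. Presomitic mesoderm markers (6 genes, Tbx6 and Msgn1 among them) moved the other way in Activin A gastruloids only. There they summed to 202 to 216 CPM in wild type against 284 to 307 CPM in Hox-/- at 96 h, and 204 to 206 and 1056 to 1071 CPM at 120 h. In endoderm cultures they were lower in Hox-/- too, at 49.3 to 62.6 CPM in wild type against 36.7 to 39.3 CPM in Hox-/-. The part of this makeup in the results below was not tested.

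**Figure D1:**
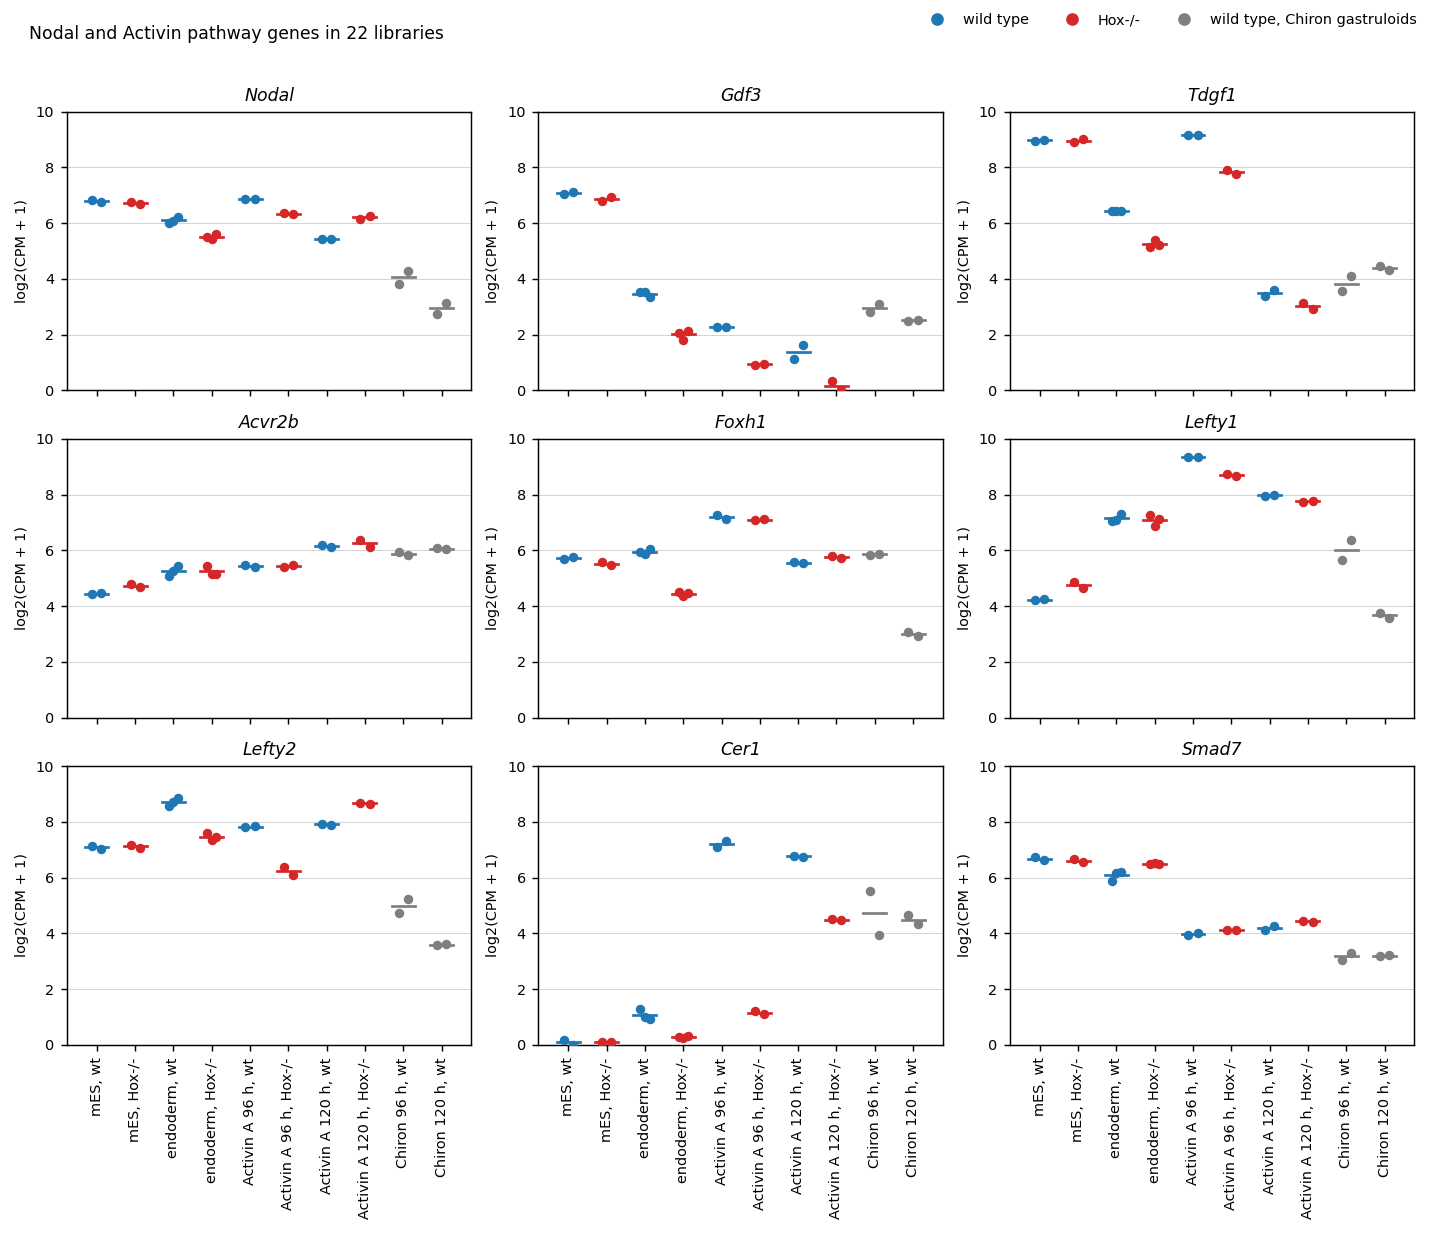
Each panel plots 1 gene as log2(CPM + 1) in the 22 libraries; points are libraries, bars are group means, and colours separate wild type, Hox-/- and the wild-type Chiron gastruloids. Cer1 runs from near 0 in mES cells to 137 and 157 CPM in wild-type Activin A gastruloids at 96 h, while Acvr2b stays between 20.8 and 82.5 CPM throughout.

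The genes ranged widely. Mean CPM differed between the highest and the lowest group by 3.63-fold for Acvr2b, 12.7-fold for Smad7, 17.2-fold for Nodal, 20.9-fold for Foxh1, 38.4-fold for Lefty2, 55.4-fold for Lefty1 and 79.9-fold for Tdgf1. Gdf3 and Cer1 reached the floor in their lowest groups and get no such ratio. Per length, in FPKM, the order of the genes depended on the culture. The co-receptor Tdgf1 led in mES cells, with a mean of 256 FPKM in wild type, where 291 genes were higher. Lefty2 led in wild-type endoderm at 169 FPKM, and Lefty1 led in wild-type Activin A gastruloids at 392 FPKM at 96 h, where 195 genes were higher, and 142 FPKM at 120 h. In Chiron gastruloids at 120 h the receptor Acvr2b was the highest of the 9, at only 19.4 FPKM.

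The first question was how the pathway differs between the genotypes in the same culture. In endoderm and in Activin A gastruloids at 96 h most of the pathway genes were lower in Hox-/-. Nodal, Gdf3, Tdgf1, Lefty2 and Cer1 fell in both, Cer1 most of all. Of the 9 only Smad7 was called higher, and at 96 h by a small margin that most alternatives did not call. At 120 h the picture was mixed, with Nodal, Lefty2 and Foxh1 higher and Cer1, Gdf3 and Tdgf1 lower. The labels do not say that replicates came from separate cultures, so p-values measure only the spread between these libraries, which may be technical. A gene is called at an adjusted p under 0.05 in edgeR's quasi-likelihood test with Benjamini-Hochberg adjustment over all genes. In mES cells 8 genes could be tested and 4 passed, 2 in each direction (all genes: 23.2% called, median log2 fold change 0.001; the 8 genes: median -0.04). In endoderm 7 of 9 were called, 6 lower and 1 higher, against 46.2% of all genes called and 23.1% called lower; the median was -1.21 for the 9 and 0.002 for all genes. In Activin A gastruloids at 96 h 7 of 9 were called, again 6 lower and 1 higher, against 38.9% called and 16.7% called lower among all genes (medians -0.60 and 0.03). Of all genes called at 96 h 57.0% were higher in Hox-/-, and 42.5% with scaling by total counts alone. At 120 h all 9 were called, 5 higher and 4 lower, against 50.4% of all genes (medians 0.21 and -0.02). These 120 h calls depended on the method: DESeq2 called 5 of the 9, and scaling by total counts alone called 7, of which 3 were higher, while it moved the share of higher genes among all calls from 49.4% to 34.6% and the median of all genes to -0.13.

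**Figure D2:**
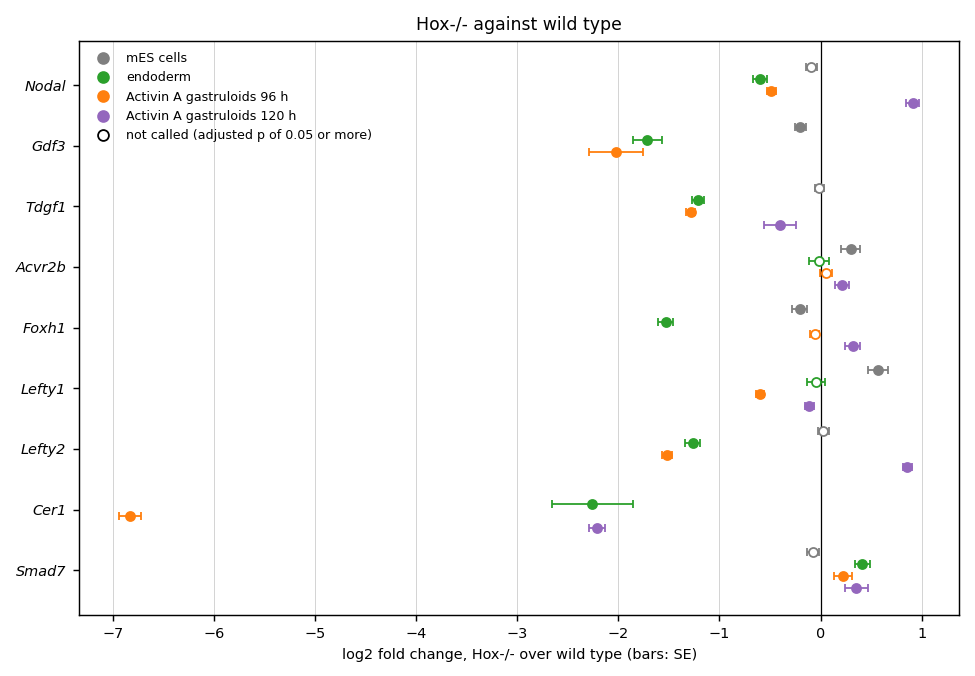
The horizontal axis gives edgeR's log2 fold change of Hox-/- over wild type with its SE, for each gene in 4 cultures; filled points were called and open points were not. Cer1 lies far to the left in Activin A gastruloids at 96 h (-6.83), and Nodal and Lefty2 lie left of 0 at 96 h and right of it at 120 h; Cer1 in mES cells and Gdf3 at 120 h are not drawn because of their low counts.

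Nodal, the ligand that names the pathway, differed little between genotypes in mES cells and was lower in Hox-/- in endoderm and at 96 h, then higher at 120 h. In mES cells it stood at 114 and 108 CPM in wild type against 106 and 102 CPM in Hox-/-, a difference that was not called (log2 fold change -0.09 with an SE of 0.0560 and adjusted p 0.25). In endoderm the wild-type libraries held 63.8, 66.3 and 73.7 CPM and the Hox-/- libraries 44.4, 41.7 and 47.7 CPM (log2 fold change -0.60 with an SE of 0.0713 and adjusted p 1.0e-05). All Hox-/- endoderm libraries were below all wild-type ones. In Activin A gastruloids at 96 h the values were 117 and 117 CPM in wild type against 81.4 and 78.8 CPM in Hox-/- (log2 fold change -0.49 with an SE of 0.0454 and adjusted p 7.9e-13). At 120 h they were 41.8 and 41.8 CPM in wild type against 69.7 and 76.1 CPM in Hox-/- (log2 fold change 0.91 with an SE of 0.0672 and adjusted p 1.8e-16). The groups did not overlap at either time, and the order of the genotypes turned round between them. Across the groups wild-type Activin A gastruloids at 96 h were highest; Hox-/- Activin A gastruloids at 120 h overlapped wild-type endoderm, and Hox-/- endoderm overlapped wild-type Activin A gastruloids at 120 h.

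Gdf3, a ligand related to Nodal that is made by pluripotent cells, was lower in Hox-/- in all 4 cultures. In mES cells it was the most abundant of the 9 genes per length after Tdgf1 in wild type, with 129.8 and 136 CPM in wild type against 111 and 121 CPM in Hox-/- (log2 fold change -0.20 with an SE of 0.0551 and adjusted p 0.007); this call was lost with DESeq2 (adjusted p 0.10) and without wild-type replicate 2 (0.16). In endoderm it was far lower in both genotypes, at 10.4, 10.5 and 9.19 CPM in wild type against 3.18, 2.52 and 3.40 CPM in Hox-/- (log2 fold change -1.71 with an SE of 0.145 and adjusted p 3.5e-07). At 96 h wild-type Activin A gastruloids held 3.87 and 3.84 CPM and Hox-/- ones 0.888 and 0.936 CPM (log2 fold change -2.02 with an SE of 0.268 and adjusted p 1.7e-08). At 120 h the Hox-/- libraries held only 3 counts together, against 30 in wild type, a ratio of 12.1 in favour of wild type (exact 95% interval 3.78 to 62.2, counting error only; 1.19 and 2.09 CPM in wild type against 0.259 and 0 CPM; edgeR adjusted p 2.6e-05). No 2 neighbouring groups in the order of Gdf3 levels overlapped. Pluripotency markers moved with it in endoderm, at 780.0 to 911 CPM in wild type against 225 to 242 CPM in Hox-/-. They did so at 120 h too, at 80.9 to 81.8 and 20.7 to 21.2 CPM, with Zfp42 at the floor in Hox-/-. Their part in it was not tested. At 96 h those sums were 1044 to 1069.7 and 889 to 907 CPM.

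Tdgf1, the co-receptor that lets Nodal engage its receptors, showed no called difference in mES cells and was lower in Hox-/- endoderm and Activin A gastruloids. The mES libraries overlapped, at 496 and 502 CPM in wild type against 476 and 514 CPM in Hox-/- (log2 fold change -0.01 with an SE of 0.0427 and adjusted p 0.86). Endoderm held 85.9, 85.9 and 85.1 CPM in wild type against 34.1, 40.5 and 35.7 CPM in Hox-/- (log2 fold change -1.21 with an SE of 0.0639 and adjusted p 2.6e-09). At 96 h Activin A gastruloids held 567 and 577 CPM in wild type against 237 and 214 CPM in Hox-/- (log2 fold change -1.29 with an SE of 0.0398 and adjusted p 2.1e-31). The wild-type libraries at 96 h were the highest of all groups, above mES cells. By 120 h little was left in either genotype, 9.51 and 10.98 CPM in wild type against 7.76 and 6.55 CPM in Hox-/- (log2 fold change -0.40 with an SE of 0.159 and adjusted p 0.031), and this last call was lost with DESeq2 (adjusted p 0.057), without a filter on low counts (0.058) and when 120 h replicate 2 of either genotype was left out (0.23 without the wild-type one, 0.25 without the Hox-/- one). As a sum, primed epiblast markers (4 genes: Fgf5, Pou3f1, Otx2 and Dnmt3b) stood lower in Hox-/- in every culture. They summed to 676 to 714 CPM in wild type against 334 to 337 CPM in Hox-/- at 96 h and to 252 to 280.1 and 111 to 113 CPM in endoderm. In mES cells, where Tdgf1 was not called, the sums were 172 to 173 and 150 to 159 CPM, with Fgf5 at the floor. At 120 h they were 314 to 318 and 149.5 to 150.7 CPM. The part of these markers was not tested. The pseudogene Tdgf1-ps1, which shares sequence with Tdgf1, stood at 27.6 CPM in wild-type mES cells, 19.9 CPM in wild-type against 9.16 CPM in Hox-/- Activin A gastruloids at 96 h (means of 2 libraries). How the authors' counting split reads between them is not given in the sources used here.

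Acvr2b, the type II receptor, varied least of the 9 over the groups. It was called higher in Hox-/- mES cells, with 20.8 and 20.9 CPM in wild type against 26.4 and 24.9 CPM in Hox-/- (log2 fold change 0.30 with an SE of 0.0938 and adjusted p 0.019), a call lost with DESeq2 (adjusted p 0.32) and without either wild-type library or Hox-/- replicate 1 (0.093 to 0.14). Endoderm libraries overlapped, at 32.6, 37.6 and 42.7 CPM in wild type against 42.3, 34.4 and 34.6 CPM in Hox-/- (log2 fold change -0.01 with an SE of 0.09996 and adjusted p 0.93). So did Activin A gastruloids at 96 h, at 43.1 and 41.3 CPM in wild type against 41.7 and 42.9 CPM in Hox-/- (log2 fold change 0.05 with an SE of 0.0630 and adjusted p 0.53). No difference in the receptor was thus called in the 2 comparisons in which most of the other genes were lower. At 120 h edgeR called it higher in Hox-/- although the libraries overlapped, at 72.3 and 68.8 CPM in wild type against 82.5 and 68.7 CPM in Hox-/- (log2 fold change 0.21 with an SE of 0.0666 and adjusted p 0.006); without Hox-/- replicate 1 the log2 fold change was 0.08 (adjusted p 0.46), and without wild-type replicate 2 the adjusted p was 0.084.

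Foxh1, the DNA-binding partner of the Smad proteins, was lower in Hox-/- endoderm and differed little at 96 h. In endoderm it stood at 59.9, 56.7 and 65.6 CPM in wild type against 21.9, 19.3 and 21.4 CPM in Hox-/- (log2 fold change -1.53 with an SE of 0.0767 and adjusted p 1.5e-09), the largest fall among these 9 genes in endoderm after Cer1 and Gdf3. In mES cells it stood at 50.9 and 52.8 CPM in wild type against 46.3 and 43.5 CPM in Hox-/- (log2 fold change -0.21 with an SE of 0.0709 and adjusted p 0.031; adjusted p 0.31 with DESeq2 and 0.12 to 0.21 without either wild-type library or Hox-/- replicate 2). In Activin A gastruloids at 96 h both genotypes were at their highest, 154 and 138 CPM in wild type against 133 and 137 CPM in Hox-/-, and the difference was not called (log2 fold change -0.06 with an SE of 0.0442 and adjusted p 0.30). At 120 h the values were 47.2 and 45.2 CPM in wild type against 55.2 and 51.5 CPM in Hox-/- (log2 fold change 0.32 with an SE of 0.0739 and adjusted p 2.7e-04). The genotypes did not overlap in any of the 4 cultures, but at 96 h the gap was small against the model's error.

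Lefty1, a secreted inhibitor of Nodal, was higher in Hox-/- mES cells and lower in Hox-/- Activin A gastruloids at 96 h. In mES cells it stood at 17.6 and 17.95 CPM in wild type against 28.2 and 24.3 CPM in Hox-/- (log2 fold change 0.57 with an SE of 0.0997 and adjusted p 5.0e-05), and it was the only one of the 9 genes that DESeq2 also called there; limma on log2(FPKM + 1) gave an adjusted p of 0.11. Endoderm libraries overlapped, at 130.4, 136 and 156 CPM in wild type against 153, 117 and 137 CPM in Hox-/- (log2 fold change -0.05 with an SE of 0.0869 and adjusted p 0.70). At 96 h Activin A gastruloids held 647 and 655 CPM in wild type against 425 and 403 CPM in Hox-/- (log2 fold change -0.60 with an SE of 0.0369 and adjusted p 4.0e-19). Both genotypes were there at their highest level of any culture. At 120 h the gap had nearly closed, with 248 and 254 CPM in wild type against 213 and 217 CPM in Hox-/- (log2 fold change -0.11 with an SE of 0.0440 and adjusted p 0.032), and that call was lost with DESeq2 (adjusted p 0.14), without a filter on low counts (0.18) and when any of the 4 libraries at 120 h was left out (adjusted p 0.071 to 0.18).

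Lefty2, the neighbouring copy and also a secreted inhibitor of Nodal, was lower in Hox-/- endoderm and at 96 h and higher at 120 h. No difference was called in mES cells, at 139.6 and 130.3 CPM in wild type against 144 and 132 CPM in Hox-/- (log2 fold change 0.03 with an SE of 0.0548 and adjusted p 0.76). In endoderm, where Lefty1 libraries overlapped, Lefty2 stood at 382, 422 and 467 CPM in wild type against 191, 163 and 172 CPM in Hox-/- (log2 fold change -1.26 with an SE of 0.0747 and adjusted p 8.5e-09). At 96 h Activin A gastruloids held 221 and 229 CPM in wild type against 82.2 and 67.5 CPM in Hox-/- (log2 fold change -1.52 with an SE of 0.0495 and adjusted p 1.7e-30). The order was reversed at 120 h, with 244 and 237 CPM in wild type against 408 and 399.7 CPM in Hox-/- (log2 fold change 0.86 with an SE of 0.0471 and adjusted p 2.2e-21), where Lefty1 was slightly lower in Hox-/-. Per length, the ratio of Lefty2 to Lefty1 FPKM was 5.06 and 4.64 in wild-type mES cells and 3.25 and 3.46 in Hox-/- mES cells. In endoderm it was 1.87, 1.96 and 1.90 in wild type and 0.797, 0.883 and 0.798 in Hox-/- (exact permutation test, two-sided, p = 0.1; no smaller p is possible with 3 against 3 libraries). Lefty2 was thus the more abundant copy in all 3 wild-type endoderm libraries and Lefty1 in all 3 Hox-/- ones. In Activin A gastruloids the ratio was 0.218 and 0.223 in wild type and 0.123 and 0.107 in Hox-/- at 96 h, and 0.633 and 0.604 in wild type and 1.23 and 1.19 in Hox-/- at 120 h. Presomitic mesoderm markers stood higher in Hox-/- at 120 h, as given above, and definitive endoderm markers lower; their part in the Lefty values was not tested.

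Cer1, a secreted inhibitor of Nodal, BMP and Wnt ligands that marks anterior endoderm, showed the largest genotype difference of the 9. At 96 h wild-type Activin A gastruloids held 137 and 157 CPM and Hox-/- ones 1.31 and 1.14 CPM (log2 fold change -6.83 with an SE of 0.106 and adjusted p 2.4e-44). At 120 h the wild-type libraries held 108 and 107 CPM and the Hox-/- libraries 21.9 and 21.04 CPM (log2 fold change -2.21 with an SE of 0.0786 and adjusted p 4.3e-29). The genotypes were far apart at both times, and at 120 h the level in Hox-/- lay within the spread of wild-type Chiron gastruloids. Endoderm cultures held little of it, 1.46, 0.989 and 0.875 CPM in wild type against 0.227, 0.185 and 0.252 CPM in Hox-/- (log2 fold change -2.26 with an SE of 0.402 and adjusted p 3.8e-04), although all Hox-/- libraries were below all wild-type ones. In mES cells at most 2 counts were seen in any library, and the gene was not tested. Definitive endoderm markers were lower in Hox-/- beside it, by the sums given above (203 to 228 CPM in wild type against 19.6 to 19.9 CPM in Hox-/- at 96 h). Visceral endoderm markers (5 genes: Afp, Apoa1, Ttr, Amn and Sox7) were near 0 in both genotypes at 96 h, at 1.20 to 1.69 CPM in wild type against 1.14 to 1.26 CPM in Hox-/-, with Afp at the floor. At 120 h they were lower in Hox-/-, at 10.2 to 13.5 CPM in wild type against 2.07 to 3.18 CPM, with Afp, Apoa1 and Ttr at the floor in Hox-/-. In endoderm they summed to 12.3 to 17.2 CPM in wild type against 6.65 to 8.30 CPM in Hox-/-, with Afp at the floor in Hox-/-. The part of these markers in the Cer1 values was not tested.

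Smad7, the inhibitor that acts inside the cell, stood higher in Hox-/- endoderm, where most others were lower. Its calls in Activin A gastruloids depended on the method. Endoderm held 57.8, 71.3 and 72.7 CPM in wild type against 89.7, 89.7 and 88.7 CPM in Hox-/- (log2 fold change 0.42 with an SE of 0.0732 and adjusted p 3.6e-04). In mES cells it stood at 106 and 97.7 CPM in wild type against 101 and 92.7 CPM in Hox-/-, overlapping (log2 fold change -0.08 with an SE of 0.0593 and adjusted p 0.39). At 96 h Activin A gastruloids held 14.3 and 15.1 CPM in wild type against 16.5 and 16.5 CPM in Hox-/- (log2 fold change 0.22 with an SE of 0.0885 and adjusted p 0.042). This small difference was lost when any of the 4 libraries at 96 h was left out (adjusted p 0.067 to 0.20) and with DESeq2 (0.33). The difference at 96 h was also not called with total counts alone (adjusted p 0.13), no filter on low counts (0.22) or the 2 groups alone (0.11). Limma on log2(FPKM + 1) and log2(FPKM + 0.1) did not call it either (0.65 and 0.60). At 120 h the values were 16.3 and 18.2 CPM in wild type against 20.5 and 20.4 CPM in Hox-/- (log2 fold change 0.36 with an SE of 0.110 and adjusted p 0.0056). That call was lost with total counts alone (adjusted p 0.060) and with DESeq2 (0.063). The authors' FPKM went the other way at 120 h, with 6.51 and 5.92 FPKM in wild type and 5.58 and 5.32 FPKM in Hox-/-, so the direction at 120 h depends on the quantity; without wild-type replicate 1 the count test gave an adjusted p of 0.090. Counts and FPKM also disagreed in mES cells, where Hox-/- replicates 1 and 2 had 22.6 and 38.6 FPKM, without such a gap in CPM.

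The genotype differences were not the same in mES cells and endoderm. The test of the difference between them (genotype by differentiation, 1 fit over both tables) called 7 of 9 genes, against 24.1% of all genes. The genotype effect in endoderm minus that in mES cells was -1.49 (SE 0.143) on the log2 scale for Gdf3, -1.30 (SE 0.109) for Foxh1, -1.27 (SE 0.111) for Lefty2, -1.17 (SE 0.0829) for Tdgf1, -0.59 (SE 0.165) for Lefty1 and -0.48 (SE 0.0982) for Nodal. The call for Lefty1 was lost without replicate 1 of wild-type mES cells (adjusted p 0.051) or of Hox-/- ones (0.10). The value was 0.51 (SE 0.108) for Smad7, the only one of the 7 with a positive sign. Acvr2b (adjusted p 0.21) and Cer1 (adjusted p 0.28) were not called. For Cer1 the test cannot decide, because no mES library held more than 2 counts of it. Within wild type, endoderm cultures compared with mES cells had lower Gdf3 (-3.85), Tdgf1 (-2.66), Nodal (-0.82) and Smad7 (-0.71) and higher Lefty1 (2.87), Lefty2 (1.53), Acvr2b (0.74) and Cer1 (45 counts against 2, a CPM ratio of 15.3 with an exact 95% interval of 3.98 to 129.8). These 8 of 9 calls stand against 79.9% of all genes, and in Hox-/- 8 of 9 were called against 80.6%. Foxh1 was not called between wild-type cultures (0.11, adjusted p 0.17) and was lower in Hox-/- endoderm than in Hox-/- mES cells (-1.19, SE 0.0813).

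Wild-type gastruloids with Activin A were compared with wild-type Chiron gastruloids at the same age. Nodal, Foxh1 and all 4 inhibitors were higher with Activin A at both times, Gdf3 was lower at both, and Tdgf1 changed sides. At 96 h all 9 genes were called, 7 higher and 2 lower, against 61.6% of all genes called and 31.3% called higher (median 2.30 for the 9 and -0.001 for all genes). At 120 h 8 were called, 6 higher and 2 lower, against 41.9% called and 20.3% called higher (medians 2.25 and -0.01). With either Chiron library of 96 h left out, 9 were still called at 96 h, in the same directions; Lefty1 ran from 2.97 to 3.69 in these fits and Tdgf1 from 5.12 to 5.70. Values in brackets beside the levels are log2 fold changes of Activin A over Chiron at 96 h and then 120 h, and in brackets ± stands for the SE of a log2 fold change unless SD is given. These comparisons share their wild-type Activin A libraries with the genotype comparisons. With limma 8 of the 9 genes were called at 96 h. On log2(FPKM + 1) the call for Smad7 was lost (adjusted p 0.051), and on log2(FPKM + 0.1) that for Gdf3 (0.067).

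**Figure D3:**
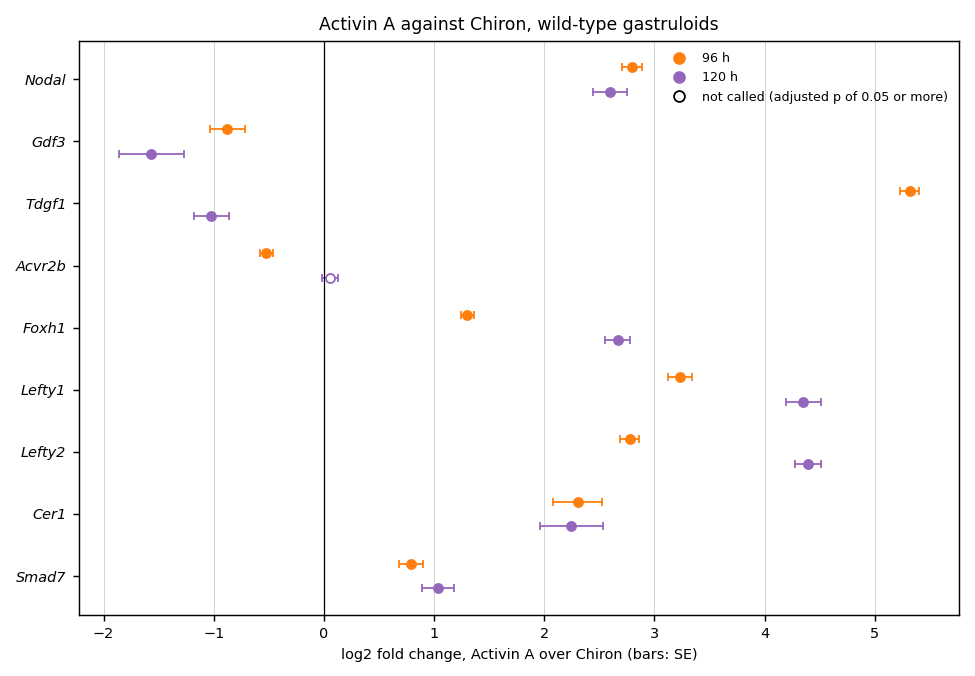
The horizontal axis gives edgeR's log2 fold change of Activin A over Chiron wild-type gastruloids with its SE at 96 h and 120 h; filled points were called. Both Lefty genes lie further right at 120 h than at 96 h, and Tdgf1 moves from 5.32 to -1.02.

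Among ligands and co-receptor, Nodal stood at 12.9 and 18.6 CPM in Chiron gastruloids at 96 h and 5.70 and 7.85 CPM at 120 h, below every Activin A library of the same age (2.80 ± 0.0932 and 2.60 ± 0.155). Gdf3 was higher in Chiron gastruloids, at 5.94 and 7.46 CPM and 4.61 and 4.77 CPM (-0.88 ± 0.161 at 96 h and -1.57 ± 0.293 at 120 h). Tdgf1 stood at 10.8 and 16.1 CPM at 96 h and 20.95 and 18.98 CPM at 120 h. The wild-type Activin A gastruloids were therefore above Chiron for Tdgf1 at 96 h (log2 fold change 5.32 with an SE of 0.0895 and adjusted p 1.5e-23) and below it at 120 h (log2 fold change -1.02 with an SE of 0.162 and adjusted p 1.9e-05).

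The receptor Acvr2b was higher in Chiron gastruloids at 96 h, at 59.7 and 56.5 CPM (-0.52 ± 0.0616), and was not called at 120 h, at 66.7 and 64.4 CPM (log2 fold change 0.05 with an SE of 0.0695 and adjusted p 0.57). Foxh1 stood at 55.5 and 57.9 CPM in Chiron gastruloids at 96 h and at 7.29 and 6.68 CPM at 120 h, its lowest level anywhere (1.30 ± 0.0589 and 2.67 ± 0.114). Chiron gastruloids thus kept the receptor while the Smad partner was low by 120 h.

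All 4 inhibitors were higher with Activin A than with Chiron at both times. Lefty1 stood at 49.3 and 81.5 CPM in Chiron gastruloids at 96 h and 12.5 and 11.03 CPM at 120 h (3.23 ± 0.112 and 4.35 ± 0.162). Lefty2 stood at 25.4 and 36.7 CPM and 10.9 and 11.1 CPM (2.77 ± 0.0861 and 4.40 ± 0.119). Both Lefty genes were lowest of all groups in Chiron gastruloids at 120 h. Cer1 stood at 45.2 and 14.4 CPM at 96 h, with the libraries far apart, and 24.2 and 18.98 CPM at 120 h (2.30 ± 0.223 and 2.25 ± 0.283). The difference at 96 h was 3.32 without Chiron replicate 1 and 1.67 without Chiron replicate 2. Smad7 was low throughout the gastruloids, at 7.20 and 8.85 CPM and 8.05 and 8.27 CPM with Chiron, and higher with Activin A (0.79 ± 0.110 and 1.03 ± 0.145). Definitive endoderm markers summed to 9.30 to 10.6 CPM in Chiron gastruloids at 96 h and 6.37 to 7.53 CPM at 120 h, with at least 5 counts of each of the 5 genes in every Chiron library. Presomitic markers summed to 1587 to 1792 CPM at 96 h and 392 to 410.4 CPM at 120 h with Chiron, and node and notochord markers (6 genes, Noto, Shh and T among them) to 513 to 563 and 143 to 163 CPM, with Noto and Shh at the floor at 120 h. Wild-type Activin A gastruloids held 1810.3 to 1869 and 401 to 409.9 CPM of the node and notochord markers. The part of these markers in the differences was not tested.

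Between 96 h and 120 h most of the pathway genes fell in wild-type Activin A gastruloids, whereas Cer1 and Lefty2 rose steeply in Hox-/- ones. In wild type 7 of 9 were called, 6 lower and 1 higher at 120 h, against 74.9% of all genes called and 37.8% called lower. In Hox-/- all 9 were called, 5 lower and 4 higher, against 72.4% of all genes, and in Chiron gastruloids 6, 5 of them lower, against 61.7% called and 33.2% called lower. The gastruloid libraries of 120 h are also the shallower ones; with all libraries thinned to the smallest, the counts of called genes were 7, 9 and 6 again.

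Marker sums of several cell types also differed between the times. For node and notochord, wild-type Activin A gastruloids held 1810.3 to 1869 CPM at 96 h and 401 to 409.9 CPM at 120 h. Hox-/- ones held 2122 to 2156 CPM at 96 h, with Shh at the floor. At 120 h they held 172 to 179 CPM, with Noto at the floor. Each of the 6 genes had at least 45 counts in every wild-type Activin A library of 96 h. The higher sum in Hox-/- at 96 h thus did not hold for Shh. Pluripotency sums were lower at 120 h in both genotypes, as given with Gdf3. Chiron gastruloids held 219.8 to 293 CPM of these markers at 96 h and 274 to 287 CPM at 120 h. Presomitic mesoderm sums in Hox-/-, where Cer1 and Lefty2 rose, were 284 to 307 CPM at 96 h and 1056 to 1071 CPM at 120 h. In wild type they were 202 to 216 CPM at 96 h and 204 to 206 CPM at 120 h. Neural markers (5 genes, Sox1 and Pax6 among them) summed to 1.94 to 2.13 CPM at 96 h and 49.7 to 51.9 CPM at 120 h in wild type. In Hox-/- the neural sums were 5.66 to 7.49 CPM at 96 h and 6.03 to 7.57 CPM at 120 h. The part of these markers in the changes with time was not tested.

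**Figure D4:**
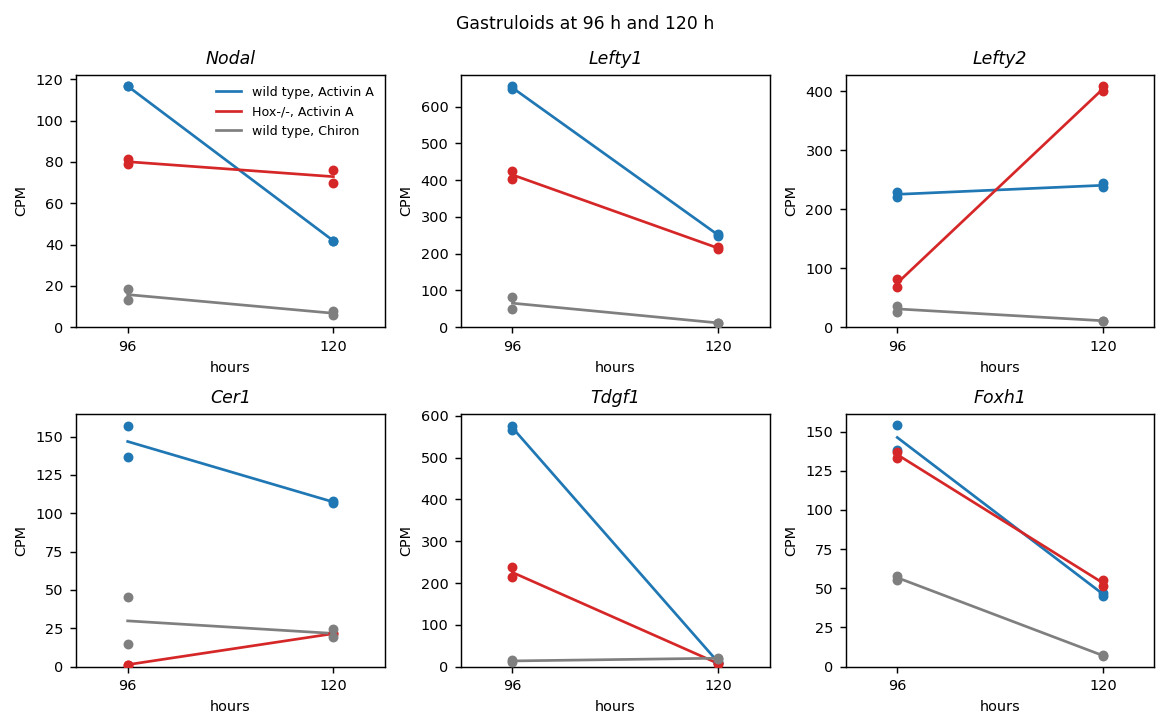
Each panel plots 1 gene in CPM at 96 h and 120 h; points are libraries and lines join the group means of wild-type Activin A, Hox-/- Activin A and wild-type Chiron gastruloids. The lines of the genotypes cross for Nodal and Lefty2, and Cer1 rises in Hox-/- from 1.31 and 1.14 to 21.9 and 21.04 CPM.

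The test of genotype by time called 6 of 9 genes, all with a positive sign, which means that the Hox-/- to wild-type difference moved upward from 96 h to 120 h; 38.9% of all genes were called and 18.7% with this sign. Cer1 moved most (log2 fold change 4.62 with an SE of 0.180 and adjusted p 9.1e-27): it fell in wild type (-0.53 ± 0.0526) and rose in Hox-/- (4.09 ± 0.173), and still ended lower in Hox-/-. Lefty2 came next (log2 fold change 2.38 with an SE of 0.0684 and adjusted p 3.2e-32), with no called change in wild type (0.02 ± 0.0467) and a rise in Hox-/- (2.40 ± 0.05002). For Nodal (log2 fold change 1.40 with an SE of 0.0811 and adjusted p 6.7e-20) the fall in wild type (-1.56 ± 0.0584) had hardly a counterpart in Hox-/- (-0.16 ± 0.0537, a call lost without Hox-/- 96 h replicate 1 or Hox-/- 120 h replicate 1). Tdgf1 fell in both genotypes, by more in wild type (-5.88 ± 0.0708 and -4.99 ± 0.0796; difference 0.88 ± 0.166). Lefty1 and Foxh1 also fell in both, with differences of 0.49 (SE 0.0573) and 0.38 (SE 0.0861). Limma on log2(FPKM + 1) did not call the difference for Foxh1 (adjusted p 0.051). Gdf3, Acvr2b and Smad7 were not called in this test (adjusted p 0.19, 0.17 and 0.49).

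In Chiron gastruloids 5 of the 9 genes fell with time. Foxh1 (-3.12 ± 0.101), Lefty1 (-2.59 ± 0.174), Lefty2 (-1.62 ± 0.139), Nodal (-1.38 ± 0.162) and Gdf3 (-0.64 ± 0.186) fell from 96 h to 120 h, and Tdgf1 rose (0.44 ± 0.127). The call for Gdf3 was lost without 96 h replicate 2 (adjusted p 0.086), with DESeq2 (0.090) and with limma on log2(FPKM + 1) and log2(FPKM + 0.1) (0.083 and 0.15). The call for Tdgf1 was lost without 120 h replicate 1 (adjusted p 0.12), with DESeq2 (0.092) and with limma on log2(FPKM + 1) (0.069), and its value was 0.25 without 96 h replicate 1 and 0.82 without 96 h replicate 2. The value for Gdf3 was -0.42 without 96 h replicate 2. Cer1 was not called (-0.49 ± 0.303), and its sign hung on 1 library: it was 0.53 without 96 h replicate 1 and -1.12 without 96 h replicate 2. The test of treatment by time called 5 of 9, against 39.6% of all genes. The Activin A to Chiron difference grew for Lefty2 (1.62 ± 0.160), Foxh1 (1.37 ± 0.135), Lefty1 (1.12 ± 0.215) and Acvr2b (0.58 ± 0.0929), and swung from positive to negative for Tdgf1 (-6.34 ± 0.186). The value for Lefty1 was 1.40 without Chiron replicate 1 of 96 h and 0.68 without Chiron replicate 2, and limma on log2(FPKM + 1) did not call it (adjusted p 0.098). Without Chiron replicate 2 of 96 h the test called 8, with Nodal (-0.52), Gdf3 (-0.89) and Cer1 (0.59) added. Without Chiron replicate 1 of 96 h it called 6, with Cer1 added at the opposite sign (-1.06).

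Other genes of the pathway were read from a list of 46, of which 42 could be tested in endoderm and gastruloids; Gdf1, Inhba, Mstn and Acvr1c were too low. The clearest group was that of 8 transcription factors known as Nodal targets in mesendoderm (Eomes, Mixl1, Gsc, Lhx1, Foxa2, Sox17, Hhex and Otx2). Of these, 7 were called lower in Hox-/- endoderm, against 23.1% of all genes (median log2 fold change -1.29), with Mixl1 not called (-0.16). All 8 were called lower in Hox-/- Activin A gastruloids at 96 h, against 16.7% of all genes (median -2.91). At 120 h 7 were called lower, against 25.5% of all genes, and Mixl1 was higher (1.31; median -2.19). All 8 were called higher with Activin A than with Chiron at 96 h and at 120 h, against 31.3% and 20.3% of all genes (medians 5.39 and 5.36). Of them Sox17, Foxa2 and Otx2 are also in the marker lists used here. The list was chosen with earlier results of these data known, so its shares are a description. The part of cell makeup in them was not tested.

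**Figure D5:**
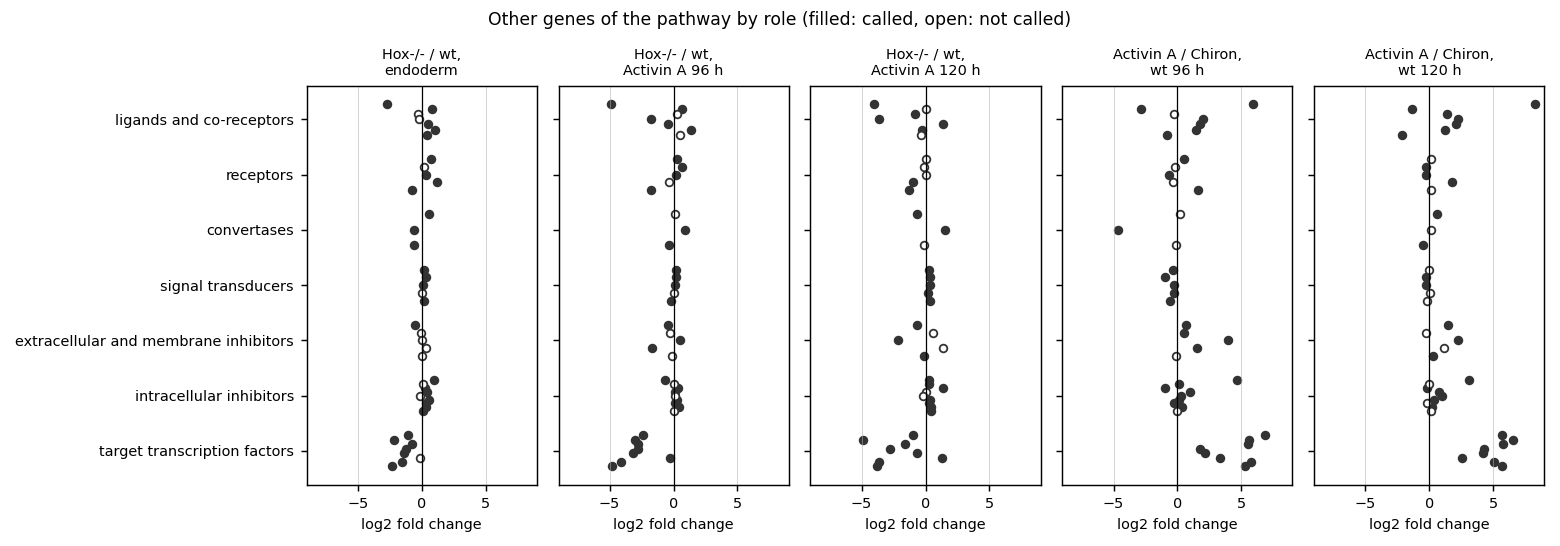
Each panel is 1 comparison and each row 1 role of the 46 other pathway genes; points are the genes that could be tested, at edgeR's log2 fold change, filled where called; values against a group at the floor, such as Cfc1 with Chiron at 120 h, depend on the prior count. The target transcription factors lie left of 0 in Hox-/- at 96 h and right of it with Activin A, while signal transducers stay close to 0.

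Individual target factors moved far. In Hox-/- against wild-type Activin A gastruloids at 96 h Sox17, an endoderm regulator, stood at 2.08 ± 0.296 against 61.0 ± 6.11 CPM (SD, n = 2; log2 fold change -4.79 with an SE of 0.115 and adjusted p 4.5e-36). Otx2, an anterior regulator, stood at 5.74 ± 1.40 against 104 ± 13.0 CPM (log2 fold change -4.08 with an SE of 0.0926 and adjusted p 3.4e-37), and Lhx1 at 22.3 ± 0.558 against 206 ± 8.82 CPM (log2 fold change -3.15 with an SE of 0.0535 and adjusted p 1.0e-42). At 120 h Foxa2 stood at 1.93 ± 0.0794 against 63.1 ± 2.62 CPM (log2 fold change -4.92 with an SE of 0.142 and adjusted p 5.5e-33). Otx2 (-3.63 ± 0.107) and Sox17 (-3.80 ± 0.132) were lower in Hox-/- at 120 h too. In endoderm Eomes stood at 78.8 ± 4.08 against 162 ± 10.1 CPM (SD, n = 3; log2 fold change -1.03 with an SE of 0.0591 and adjusted p 6.4e-09), and Sox17 (-2.32 ± 0.129) and Otx2 (-1.51 ± 0.0883) were also lower. With Activin A against Chiron at 96 h Eomes (6.84 ± 0.111), Foxa2 (5.59 ± 0.112) and Mixl1 (3.32 ± 0.0704) were higher, and so at 120 h were Foxa2 (6.52 ± 0.181), Otx2 (5.06 ± 0.156) and Sox17 (5.67 ± 0.177). In mES cells Otx2 was the only listed gene called at 2-fold or more, and it rose in Hox-/-, to 14.5 ± 1.32 from 6.10 ± 0.830 CPM (log2 fold change 1.25 with an SE of 0.144 and adjusted p 1.7e-08; adjusted p 0.091 with limma on log2(FPKM + 1)).

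Cfc1 (Cryptic), the other EGF-CFC co-receptor, went with Tdgf1 and further. It was lower in Hox-/- endoderm, at 3.39 ± 0.220 against 22.6 ± 1.30 CPM (log2 fold change -2.73 with an SE of 0.109 and adjusted p 1.4e-10). In Hox-/- Activin A gastruloids it stood at 0.795 ± 0.462 against 26.7 ± 2.84 CPM in the 96 h libraries (log2 fold change -4.91 with an SE of 0.168 and adjusted p 1.5e-29) and at 0.985 ± 0.0702 against 17.3 ± 0.730 CPM in the 120 h libraries (log2 fold change -4.01 with an SE of 0.236 and adjusted p 3.8e-20). With Activin A it was higher than with Chiron at 96 h (5.89 ± 0.186). Unlike Tdgf1, it was still at 17.3 ± 0.730 CPM in wild-type Activin A gastruloids at 120 h, at least 60.6-fold higher than in Chiron gastruloids, where it was at the floor (edgeR adjusted p 7.9e-14).

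Over all genes 46.2% were called between genotypes in endoderm, 38.9% at 96 h and 50.4% at 120 h, and the counts by role stand beside these shares. Of 7 ligands and co-receptors tested, Cfc1 among them, 5 were called in endoderm (4 higher and 1 lower in Hox-/-), 5 at 96 h (2 higher, 3 lower) and 5 at 120 h (1 higher, 4 lower). Tgfb2 was higher in Hox-/- endoderm (1.06 ± 0.0539) and at 96 h (1.39 ± 0.0883), Tgfb1 was higher at 120 h (1.35 ± 0.117), and the Activin subunit gene Inhbb was lower at 96 h (-1.78 ± 0.420, from 1.37 ± 0.307 CPM in wild type; adjusted p 0.099 with DESeq2). At 120 h Inhbb was at the floor in Hox-/- and at 0.708 ± 0.0692 CPM in wild type, at least 2.63-fold lower (adjusted p 0.0034 with edgeR, 0.057 with DESeq2 and 0.073 without Hox-/- 120 h replicate 1). Of 5 receptors tested, 4 were called in endoderm, 4 at 96 h and 2 at 120 h, the last no larger a share than that of all genes. Tgfbr3, which presents TGF-beta and inhibin, was lower in Hox-/- gastruloids at 96 h (-1.74 ± 0.103) and at 120 h (-1.32 ± 0.146), and Tgfbr2 was higher in Hox-/- endoderm (1.20 ± 0.0885) and lower at 120 h (-1.01 ± 0.186).

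With Activin A against Chiron, ligands and receptors changed in both directions. Gdf11, a ligand that patterns the trunk-to-tail transition, was lower with Activin A, at 7.31 ± 0.289 against 49.8 ± 2.94 CPM at 96 h (SD, n = 2; log2 fold change -2.82 with an SE of 0.0857 and adjusted p 1.0e-18), and was also lower at 120 h (-1.39 ± 0.0763). Tgfb1 (1.74 ± 0.106) and the receptor gene Tgfbr3 (1.60 ± 0.101) were higher with Activin A at 96 h. At 120 h Tgfb2 (1.26 ± 0.0894) and the receptor gene Tgfbr2 (1.81 ± 0.197) were higher with it.

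The signal transducers (Smad2, Smad3, Smad4, Trim33 and Zfyve9) moved little: 4 of 5 were called in endoderm, 4 at 96 h and 5 at 120 h (all genes 46.2%, 38.9% and 50.4%), with medians of 0.16, 0.13 and 0.33 and none at 2-fold. Intracellular inhibitors were called higher in Hox-/- for 7 of 9 in endoderm, 5 of 9 at 96 h (1 lower) and 7 of 9 at 120 h, against 23.1%, 22.2% and 24.9% of all genes called higher, all by less than 2-fold apart from the co-repressor gene Ski at 120 h (1.37 ± 0.0425). Fst (follistatin), which binds Activin, was lower in Hox-/- Activin A gastruloids at 120 h, at 29.7 ± 1.53 against 145 ± 5.26 CPM (log2 fold change -2.17 with an SE of 0.0710 and adjusted p 1.2e-30). With Activin A rather than Chiron, Fst (3.96 ± 0.0657) and Pmepa1, an intracellular inhibitor and known TGF-beta target (4.65 ± 0.135), were higher at 96 h, and so they were at 120 h (2.204 ± 0.0790 and 3.11 ± 0.177). The co-repressor gene Skil was higher with Activin A at 96 h (1.00 ± 0.0514), and Bambi, a decoy receptor, at 120 h (1.43 ± 0.108). Fstl3, a follistatin relative that binds Activin, was low in gastruloids: at 96 h with Activin A it stood at 0.217 ± 0.0234 CPM in Hox-/- against 0.774 ± 0.163 CPM in wild type (log2 fold change -1.71 with an SE of 0.527 and adjusted p 0.0078) and at 0.257 ± 0.118 CPM with Chiron (1.56 ± 0.529). DESeq2 called neither difference in Fstl3 (adjusted p 0.16 and 0.23). The first was also lost without wild-type 96 h replicate 1 (0.085) or Hox-/- 96 h replicate 1 (0.064) or 2 (0.0504), and the second was lost without Chiron 96 h replicate 2 (0.14). The convertase gene Pcsk5 was lower with Activin A at 96 h (-4.66 ± 0.182) and higher in Hox-/- than in wild-type Activin A gastruloids at 120 h (1.51 ± 0.0679). Over the whole list 31 of 42 were called in endoderm, 32 at 96 h and 32 at 120 h, against 46.2%, 38.9% and 50.4% of all genes, with medians of 0.11, 0.07 and -0.03. The list as a whole was thus split between directions.

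The genes whose mean levels followed 8 of the 9 most closely over the 10 groups were looked up among 13272 genes, by Pearson's r of log2(CPM + 1); groups share cells, depth and time, and r is a description. Gdf3 was followed by Nr0b1 (0.9969), Acvr2b by Arhgap33 (0.9901) and Cer1 by Lpar3 (0.9617). Tdgf1 was followed by its own pseudogene Tdgf1-ps1 (0.9917). The closest to Lefty1 was Tmem63a (0.9633), which lies 3943 bases from it, with 82.0 CPM in wild-type Activin A gastruloids at 96 h and 3.88 CPM in Chiron gastruloids at 120 h (means of 2 libraries). Nodal (Gpr4, 0.8832), Foxh1 (Gna14, 0.8905) and Lefty2 (Junb, 0.8642) had no partner above 0.9.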

How the data were processed

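Poly-A selected RNA of 22 libraries in 10 groups was sequenced from stranded libraries, per the labels' protocols. The authors deposited gene counts and FPKM (fragments scaled to transcript length and library total); cutadapt 1.16, STAR and Cufflinks 2.2.1 and the mm10 build are named in the submitters' processing notes. The counting tool and its strand setting are not given in the sources used here. Depth was 9108085 to 28819301 deposited counts per library, which limits genes near the floor of 3 counts per library; intervals cover counting error only. The wild-type Activin A libraries stand in both gastruloid tables with identical values and were used once per comparison.

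Counts were tested with edgeR 4.0.16 in R 4.3.3 (filterByExpr, TMM scaling, 1 coefficient per group, quasi-likelihood test, Benjamini-Hochberg adjustment over all genes of a table, 14 comparisons); the script was tested on simulated data. The SE of an edgeR log2 fold change was derived, as its absolute value divided by the square root of the test's F statistic. CPM are counts scaled to the library total, not adjusted by TMM. Alternatives were RLE or total-count scaling, no filter, DESeq2 1.42.0, limma 3.58.1 on log2(FPKM + 1) and log2(FPKM + 0.1), a replicate block, the 2 groups alone, thinned counts, and each library left out. The 9 genes are named in every comparison; other pathway genes are named per role and genotype or treatment comparison where called and at least 2-fold changed, up to 3 by smallest p, and Mixl1 was named after its values were seen. A few items, among them 1 gene of each of 2 lists, are not reported here, and list sums and counts leave them out. The members and lists were chosen with earlier results of these data known. Plots were drawn with matplotlib 3.10.9.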

Additional observations from a re-analysis of the deposited data

Results flagged for a closer look

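In Activin A gastruloids the genotype effect differed between 96 h and 120 h, by the test of genotype by time (edgeR's quasi-likelihood test, adjusted p under 0.05), for 6 of the 9 genes. The effect at 120 h minus that at 96 h, on the log2 scale, was 4.62 for Cer1, 2.38 for Lefty2, 1.40 for Nodal, 0.88 for Tdgf1, 0.49 for Lefty1 and 0.38 for Foxh1. Nodal and Lefty2 were lower in Hox-/- at 96 h and higher at 120 h, while Cer1, Tdgf1 and Lefty1 stayed lower in Hox-/- at both times. The calls for Tdgf1 and Lefty1 at 120 h were lost with DESeq2 and without a filter on low counts.

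In wild-type gastruloids the difference between Activin A and Chiron changed from 96 h to 120 h for 5 genes. It moved by -6.34 for Tdgf1, 1.62 for Lefty2, 1.37 for Foxh1, 1.12 for Lefty1 and 0.58 for Acvr2b. The call for Lefty1 was lost with limma on log2(FPKM + 1).

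Between mES cells and endoderm cultures the genotype effect differed for 7 genes. The effect in endoderm minus that in mES cells was -1.49 for Gdf3, -1.30 for Foxh1, -1.27 for Lefty2, -1.17 for Tdgf1, -0.59 for Lefty1, -0.48 for Nodal and 0.51 for Smad7.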

How the results depend on the processing

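Of 125 pairs of a gene and a comparison that were tested, 100 were called, and 80 of these kept their sign and their call under every alternative run. Of 1572 values under an alternative, 1451 kept sign and call, 70 lost a call, 17 gained one and 34 had the other sign; the cause was not tested. The comparison of mES cells was the least stable: against 4 genes called, DESeq2 called 1, limma called 0 with either pseudocount (3 of 8 at an unadjusted p under 0.05), and leaving out 1 library gave 1 to 3. Over all genes edgeR called 3168 there, DESeq2 953, and limma 52 and 372. At 96 h edgeR called 6546 genes between genotypes of Activin A gastruloids, DESeq2 3195, and limma 3078 and 2787; for genotype by time these were 6544 with edgeR, 4092 with DESeq2 and 4264 with limma on log2(FPKM + 0.1), and for Activin A against Chiron at 96 h 10655 with edgeR and 6670 with the latter. Without wild-type mES replicate 1 or 2, edgeR called 1477 or 1690 genes in mES cells. Between genotypes at 120 h DESeq2 called 5 of the 9 against 9, and leaving out 1 library gave 6 to 7. For treatment by time the range was 5 to 8, with 8 when Chiron 96 h replicate 2 was left out.

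One called value changed sign: Smad7 between genotypes at 120 h, which was -0.16 and -0.19 with limma on FPKM. The other changes of sign were in values that were not called. With limma on log2(FPKM + 1) and log2(FPKM + 0.1), Smad7 was 0.35 and 0.37 between genotypes of mES cells, -0.30 and -0.35 for genotype by time, and 0.012 and 0.018 between times in Chiron gastruloids (0.0053 with total counts alone). Acvr2b was -0.012 and -0.012 between genotypes at 96 h and -0.094 and -0.099 between Activin A and Chiron at 120 h. Gdf3 was 0.29 for genotype by time with limma on log2(FPKM + 1). Lefty2 between times in wild-type Activin A gastruloids was -0.00038 with RLE size factors, -0.045 with no filter on low counts and -0.016 with DESeq2.

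With 1 library left out at a time, values ran from -0.043 to 0.086 for Lefty2 and -0.070 to 0.036 for Tdgf1 between genotypes of mES cells. They ran from -0.12 to 0.085 for Acvr2b and -0.14 to 0.053 for Lefty1 in endoderm, and from -0.14 to 0.017 for Foxh1 between genotypes at 96 h. Between times they ran from -0.0094 to 0.048 for Lefty2 in wild-type Activin A gastruloids, and from -1.12 to 0.53 for Cer1 and -0.19 to 0.10 for Smad7 in Chiron gastruloids. For treatment by time they ran from -1.06 to 0.59 for Cer1 and -0.52 to 0.024 for Nodal.

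With a replicate block 4 genes were called in mES cells, 7 in endoderm, and 7 and 9 between genotypes at 96 h and 120 h, the same numbers as without it, as in the other 10 comparisons. Same-numbered libraries showed little shared deviation over all genes (correlations -0.07 to 0.12). With so few libraries per group this cannot exclude a pairing, and the labels give none. Scaling by total counts alone moved the median of all genes from 0.07 to 0.18 between wild-type endoderm and mES cells and from -0.04 to 0.06 between times in Chiron gastruloids. FPKM fits were not made over the joint mES and endoderm tables. Depth limits Gdf3 and Cer1 at the floor of 3 counts.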
